A study of Mus musculus with 4 samples.

Results

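In the mouse, Csf2ra and Csf2rb encode the chains of the CSF2 receptor, and Csf2rb2 is a paralog of Csf2rb. These 3 genes were taken by name from the 32285 features of the count matrices. They were followed across the cell populations of the colon in single-cell RNA-seq of cells enriched for CD11b, the integrin encoded by Itgam, with a StemCell positive selection kit. The wild-type group was Csf2+/+ and the knockout group Csf2-/-. All groups also carried 1 CX3CR1-GFP and 1 CCR2-RFP reporter allele (CX3CR1-GFP/+:CCR2-RFP/+), and none was treated. Cells came from the colon lamina propria (LP) or from the colon's solitary isolated lymphoid tissues (SILT), giving 4 groups of 1 library each. The design text names 5 mice. Whether they were pooled, and their age, are not given in the sources used here.

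CSF2, also called GM-CSF, is a cytokine that acts on macrophages, monocytes, dendritic cells and granulocytes. Csf2ra encodes the alpha chain, which binds CSF2 and no other known ligand. Csf2rb encodes the common beta chain, which carries the signal through JAK2 and STAT5 and is shared with the receptors for IL-3 and IL-5. Csf2rb2 encodes a second beta chain, found in the mouse, that works with the IL-3 receptor. In the gut, CSF2 from lymphoid cells is known to act on neighbouring macrophages and dendritic cells.

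On GRCm38 (GENCODE M21), Csf2ra (ENSMUSG00000059326) lies on chromosome 19 at 61223957 to 61228429 on the minus strand. Csf2rb (ENSMUSG00000071713) lies on chromosome 15 at 78325752 to 78353847 on the plus strand. Csf2rb2 (ENSMUSG00000071714) is its neighbour on the minus strand, at 78282507 to 78305721, with 20030 bases between the genes. The Csf2rb and Csf2rb2 transcripts are 91.5% identical over 4251 of 4647 aligned bases, so reads from one could be given to the other. The stretches below, the last 90 coding bases that align without a gap, show how close they are. Capitals mark the 6 bases that differ.
Csf2rb: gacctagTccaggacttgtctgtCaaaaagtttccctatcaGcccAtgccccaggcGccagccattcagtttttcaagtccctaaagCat
Csf2rb2: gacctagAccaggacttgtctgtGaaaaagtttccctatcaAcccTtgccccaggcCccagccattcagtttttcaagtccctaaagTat
The libraries read transcripts from near their 3' end, and there the genes differ more. The last 500 bases of Csf2rb are 83.6% identical to Csf2rb2 where they align. Of all 50-base windows of the Csf2rb transcript, 18.9% occur unchanged in Csf2rb2, but 0 of those in its last 500 bases do. The last shared window ends 1061 bases before the 3' end of Csf2rb.

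The promoters of Csf2ra and Csf2rb2 share few letters that were searched for. The 120 bases before each RefSeq start (GRCm38.p6, minus strand, chr19:61228419-61228538 and chr15:78305722-78305841) are given below. Csf2rb had no promoter in the set used. Any link of these letters to the genotype values below was not tested. Capitals mark the motif matches.
Csf2ra: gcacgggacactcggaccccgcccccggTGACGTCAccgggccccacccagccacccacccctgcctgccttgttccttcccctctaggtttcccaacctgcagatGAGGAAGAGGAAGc
Csf2rb2: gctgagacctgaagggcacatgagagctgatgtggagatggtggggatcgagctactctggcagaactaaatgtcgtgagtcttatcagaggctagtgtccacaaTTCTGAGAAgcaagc
The search covered both strands from 250 bases before to 50 after the start. Csf2ra holds the CREB-type motif TGACGTCA, present in 1.79% of 32851 promoters, and 2 overlapping copies of the PU.1-type motif GAGGAAG, present in 13.6%. Csf2rb2 holds the STAT-type motif TTCNNNGAA, present in 8.3%, close to its start, and the PU.1-type motif outside the stretch shown. A match is a description of the letters and not a measured site.

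The libraries held 5128 (wild-type LP), 2158 (Csf2-/- LP), 8041 (wild-type SILT) and 2578 (Csf2-/- SILT) barcodes, and between 19225644 and 67656927 unique molecular identifiers (UMIs) each. After filtering, 16352 cells remained, with median UMIs per cell from 5816.5 to 9961. Barcodes shared between pairs of libraries numbered 3 to 19, at most 0.371% of the smaller library. Csf2 itself gave 24 UMIs in wild-type SILT, 22 of them in a cluster led by Gzma and Nkg7, and 2 UMIs in wild-type LP. No Csf2 UMI was seen in either Csf2-/- library, with exact 95% upper bounds of 0.1967 UMIs per 1000000 UMIs (CPM) in LP and 0.1781 in SILT. Wild-type LP, at 0.04147 CPM, lay below the LP bound, so Csf2 counts do not tell the LP libraries apart. Xist, transcribed in female cells, and the Y-linked Ddx3y were detected in all 4 libraries (Xist 266.1 to 825.3 CPM, Ddx3y 28.1 to 58.4 CPM). Xist was higher and Ddx3y lower in both Csf2-/- libraries than in the wild-type ones. The balance of these sex-linked genes thus differed with genotype, and cannot be told apart from it in the comparisons below. Many clusters were endothelial, pericyte, B or plasma cells with little Itgam despite the selection. In the whole libraries Itgam stood between 94.83 and 235.6 CPM.

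With 1 library per group no test across animals could be made. A level is the UMIs of a gene divided by all UMIs of the population in that library, in CPM. Intervals are 95% and exact (Poisson for levels, binomial for shares and ratios), and cover counting error only. Differences between libraries of one condition are not measured by them. Clusters were named, as "macrophage-like" and so on, from marker genes, and the receptor genes took no part in the clustering. Macrophage-like cells formed a large cluster led by Lyve1, Folr2 and Cd163 (the Lyve1 cluster, 1813 cells) and one led by Mmp13 and H2-M2 (the Mmp13 cluster, 716 cells). Monocyte-like cells formed a cluster led by Ccr2, Ms4a4c and Il1b (the Ms4a4c cluster, 1405 cells) and one led by Chil3 and Hp (the Chil3 cluster, 519 cells).

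Csf2ra, the ligand-binding chain, was a myeloid transcript with its highest levels outside the macrophage-like cells. In the Chil3 monocyte-like cluster it stood at 277 CPM in wild-type LP, 307.5 in Csf2-/- LP, 178.1 in wild-type SILT and 249.2 in Csf2-/- SILT. The Ms4a4c cluster followed, at 188.3, 238.5, 161.5 and 207.3 CPM in the same order of libraries. cDC2-like cells, which resemble type 2 conventional dendritic cells, had 195.7, 199.5, 130.1 and 177.6 CPM. The Chil3 cluster was the highest of these 3 in every library, although its interval overlapped that of the Ms4a4c cluster in both SILT libraries. The order of the Ms4a4c cluster and cDC2-like cells differed between libraries.

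Macrophage-like cells were split by this gene. The Mmp13 cluster had Csf2ra at 193.5, 223.1, 139 and 169.1 CPM, in the range of the monocyte-like cells. The Lyve1 cluster had 81.01, 107.7, 55.68 and 87.02 CPM, lower than the Mmp13 cluster in all 4 libraries. A UMI of Csf2ra was found in 32.85% to 54.37% of Lyve1 cluster cells and in 73.29% to 90.8% of Mmp13 cluster cells. Cells of the Mmp13 cluster were also deeper (median 12130 to 18610 UMIs against 7537 to 11488). After thinning each cell to 1000 UMIs the shares were 4.723% to 8.128% and 12.8% to 19.8%. In blood endothelial-like cells, which serve as a low reference, the share was 1.775% to 3.193% unthinned, at a median of 6374 to 9516 UMIs.

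The unnamed cluster led by Retnla, Lpl and Fn1 had the highest Csf2ra by its median over libraries among the populations with at least 30 cells. It stood at 376 CPM in wild-type LP (99 cells) and 225.8 in wild-type SILT (45 cells). Only 9 and 5 cells of it came from the Csf2-/- LP and SILT libraries, too few for a level. Neutrophil-like cells had 257.2 CPM in Csf2-/- SILT, the only library with enough of them. Migratory dendritic-like cells had 113 CPM in wild-type SILT and 250.8 in Csf2-/- SILT. cDC1-like cells, which resemble type 1 dendritic cells, had 113 CPM in Csf2-/- LP, 76.18 in wild-type SILT and 130.7 in Csf2-/- SILT. At the low end, B cell-like cells had 25.04 and 28.3 CPM in the SILT libraries and blood endothelial-like cells 2.771 to 3.449 CPM over the 4 libraries. The B cell-like cells also carried 445.1 and 334.5 CPM of the macrophage genes C1qa, C1qb and C1qc summed, and the part of stray RNA in their Csf2ra was not tested.

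Csf2rb, the signalling chain, ranked the populations differently. Migratory dendritic-like cells were highest, at 284.8 CPM in wild-type SILT (150 cells) and 391.7 in Csf2-/- SILT (34 cells). By their median over libraries, the Mmp13 cluster came next with 233.4, 225.7, 135.5 and 176.5 CPM in the order used above. An unnamed cluster led by Il22ra2, with 996 of its 1143 cells from wild-type SILT, was shallow (median 1105 UMIs). It had 99.07 CPM in wild-type SILT and 181.8 in Csf2-/- SILT. Neutrophil-like cells had 180.1 CPM in Csf2-/- SILT. In that library the Il22ra2 cluster (62 UMIs) and neutrophil-like cells (28 UMIs) lay close to the Mmp13 cluster, and their order is not resolved. cDC2-like cells had 205.3, 159.7, 117.6 and 120.5 CPM, the Ms4a4c cluster 173.5, 127.6, 111.7 and 143.3, and the Chil3 cluster 163.6, 158.2, 117.9 and 155.8. The ranges of these 3 over the libraries overlapped, but their order differed between libraries. In LP the intervals of cDC2-like cells (192.8 to 218.4 in wild type, 145.4 to 175 in Csf2-/-) lay above the Ms4a4c levels. In Csf2-/- SILT the cDC2-like interval (105.3 to 137.3) lay below the Ms4a4c level, and in wild-type SILT (105.1 to 131.2) it included it. The Lyve1 cluster was again lower, at 82.27, 81.84, 65.28 and 71.15 CPM, and overlapped cDC1-like cells (64.84 to 91.99).

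Csf2rb2, the IL-3-specific beta chain, was highest in the Mmp13 cluster and in migratory dendritic-like cells. The Mmp13 cluster had 81.45, 81.75, 49.93 and 58.21 CPM and migratory dendritic-like cells 57.87 and 109.9. The Lyve1 cluster (22.44 to 31.89), the Ms4a4c cluster (23.81 to 37.7) and cDC2-like cells (26.56 to 36.74) overlapped. The Chil3 cluster, with the highest Csf2ra of the 4 macrophage- and monocyte-like clusters, had 13.47 to 23.41 CPM.

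**Figure D1:**
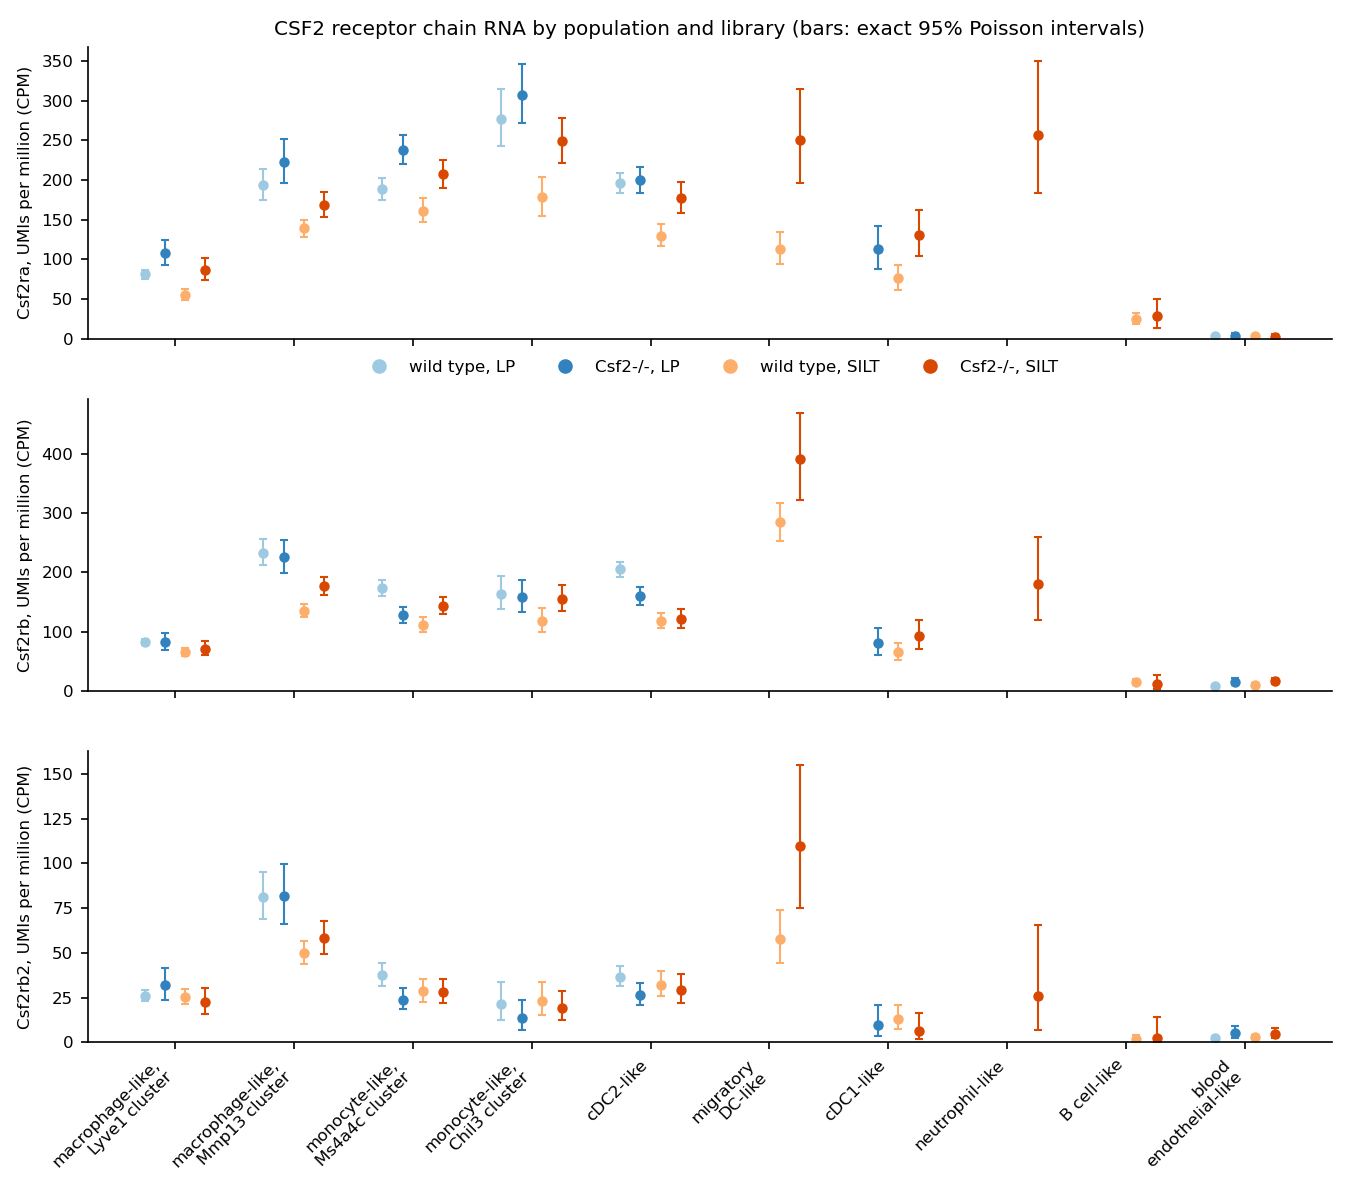
Levels of Csf2ra, Csf2rb and Csf2rb2 (vertical axes, CPM) in 10 populations, without the unnamed Retnla cluster, 1 point per library with at least 30 cells, with exact 95% Poisson intervals. Of the populations drawn, Csf2ra is highest in the Chil3 monocyte-like cluster, at 307.5 CPM in Csf2-/- LP, and Csf2rb in migratory dendritic-like cells, and all 3 genes are higher in the Mmp13 than in the Lyve1 macrophage-like cluster in each library.

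The balance of the chains was compared next. How well the 3' method captures each gene is unknown, so a ratio has meaning only against the same ratio in other populations. Over all libraries, macrophage-like cells had 1.02 UMIs of Csf2rb per Csf2ra UMI (0.974 to 1.07), with 0.994 in the Lyve1 and 1.05 in the Mmp13 cluster. By library, in the order used above, the Lyve1 cluster had 1.02, 0.76, 1.17 and 0.818 and the Mmp13 cluster 1.21, 1.01, 0.975 and 1.04, so the Lyve1 cluster was lower in 3 libraries and higher in wild-type SILT. Monocyte-like cells had 0.68 (0.645 to 0.717), and their clusters 0.717 (Ms4a4c) and 0.596 (Chil3). cDC2-like cells had 0.906 (0.853 to 0.963) over all libraries, but ranged from 1.05 in wild-type LP, near the 1.07 of macrophage-like cells there, to 0.679 in Csf2-/- SILT, near the 0.667 of monocyte-like cells, and cDC1-like cells had 0.773 (0.643 to 0.927). The Retnla cluster leaned furthest to the alpha chain of the myeloid populations named here, at 0.41 (0.359 to 0.467). Migratory dendritic-like cells leaned to the beta chain, at 2.3 (1.96 to 2.72).

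The paralogs gave another split. Macrophage-like cells had 0.347 Csf2rb2 UMIs per Csf2rb UMI (0.324 to 0.371), and each library lay between 0.327 and 0.375. Monocyte-like cells had 0.192 (0.173 to 0.213), with libraries between 0.158 and 0.238. cDC2-like cells had 0.199 (0.178 to 0.221), with libraries between 0.166 and 0.274. The library ranges of macrophage-like and monocyte-like cells did not overlap. The ratio was also alike in the Lyve1 (0.34) and Mmp13 (0.353) clusters. It was not particular to them, at 0.315 (0.24 to 0.41) in blood endothelial-like cells and 0.308 (0.239 to 0.394) in the Il22ra2 cluster. How far reads given to the wrong paralog enter these ratios was not tested.

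**Figure D2:**
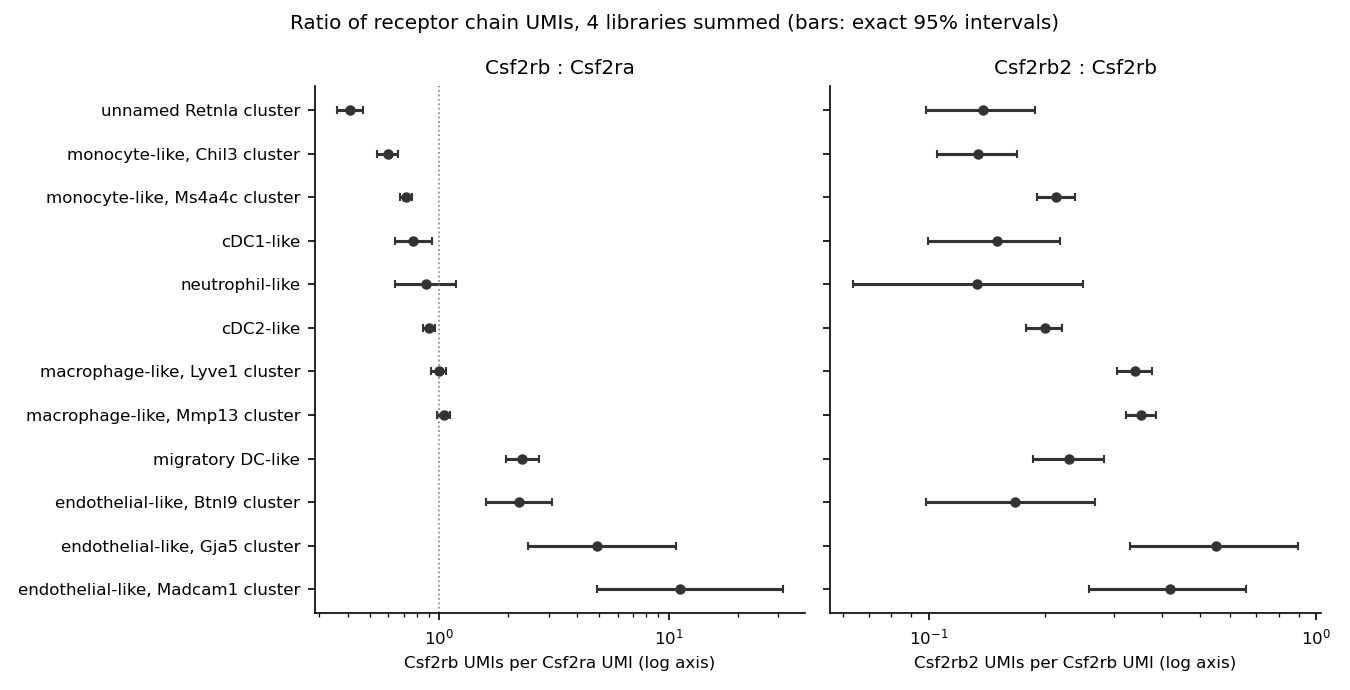
UMIs of Csf2rb per UMI of Csf2ra (left) and of Csf2rb2 per UMI of Csf2rb (right) in 12 clusters, summed over the 4 libraries, on log axes with exact 95% intervals. The left panel runs from 0.41 in the Retnla cluster to 11.2 in the Madcam1 endothelial-like cluster. The right panel sets both macrophage-like clusters (0.34 and 0.353) above the monocyte-like ones (0.213 and 0.134). The Gja5 (0.551) and Madcam1 (0.418) endothelial-like clusters stand higher there than the macrophage-like ones.

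Blood endothelial-like cells had little alpha chain RNA, and their 4 clusters differed in Csf2rb. In wild-type SILT, the cluster led by Apln, Enpp6 and Car4 (196 cells) had 1.527 CPM of Csf2rb and the same of Csf2ra, 3 UMIs each. The cluster led by Btnl9 and Aplnr (capillary genes) had 8.052 CPM of Csf2rb (57 UMIs). The cluster led by Gja5 and Sema3g (arterial genes) had 21.56 (26 UMIs), and the one led by Madcam1, Ackr1 and Selp (venule genes) had 38.2 (24.2 to 57.31 is its interval, from 23 UMIs in 67 cells). Csf2ra stood at 2.684, 4.974 and 6.643 CPM in the Btnl9, Gja5 and Madcam1 clusters, and the 4 UMIs behind the last value were in 1 cell. Csf2rb2 stood in the same order as Csf2rb, at 0.5091, 0.8476, 13.26 and 18.27 CPM from the Apln to the Madcam1 cluster. In wild-type LP the last 3 clusters had 4.157, 16.69 and 68.17 CPM of Csf2rb, the last from 23 cells, and the Apln cluster had 8 cells.

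Macrophage RNA was present in these clusters too. The whole list of 17 macrophage markers ran in the same order as Csf2rb in wild-type SILT, at 1190, 1314, 1326 and 1794 CPM in the Apln, Btnl9, Gja5 and Madcam1 clusters, with Cd163, Lyve1 and Cbr2 at 0 in the last. Itgam was 0, 1.978, 0 and 9.964 CPM. The summed C1qa, C1qb and C1qc level did not run in that order, at 174.6, 174, 199.8 and 164.4 CPM. The part of macrophage RNA in the receptor values was not tested. Over all libraries the Csf2rb to Csf2ra ratio was 2.22 (1.6 to 3.12) in the Btnl9, 4.9 (2.45 to 10.8) in the Gja5 and 11.2 (4.87 to 31.5) in the Madcam1 cluster, against 1.02 in macrophage-like cells. The Apln cluster had too few UMIs for a ratio. In the Madcam1 cluster this rests on 67 Csf2rb and 6 Csf2ra UMIs. A Csf2rb UMI was present in 22.39% of its cells in wild-type SILT and in 34.78%, 56.25% and 37.5% of its 23, 16 and 8 cells in wild-type LP, Csf2-/- LP and Csf2-/- SILT.

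**Figure D3:**
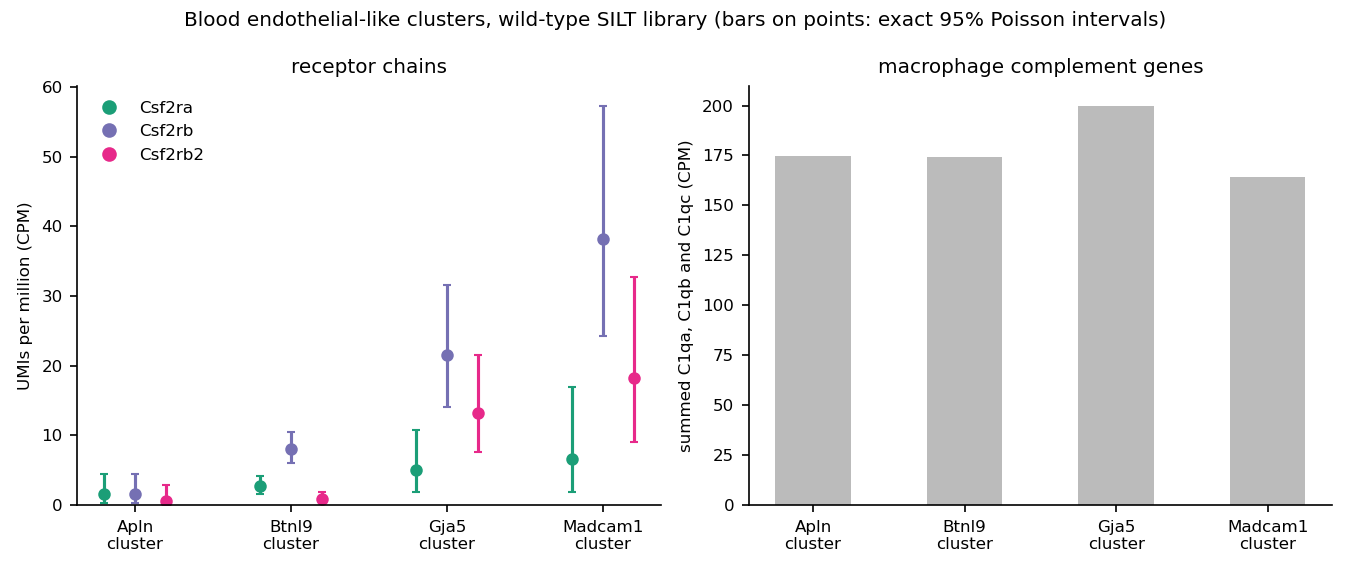
Left, levels of the receptor chains (CPM, exact 95% Poisson intervals) in the 4 blood endothelial-like clusters of the wild-type SILT library; right, summed C1qa, C1qb and C1qc in the same cells. Csf2rb goes from 1.527 to 38.2 CPM across the clusters, and the complement genes stand between 164.4 and 199.8 CPM. The 17 macrophage markers summed, not drawn, run from 1190 to 1794 CPM in the same order as Csf2rb. The part of macrophage RNA in the receptor values was not tested.

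Whether cells with the alpha chain were richer in the beta chain differed between populations, libraries and depths. This was examined after thinning cells to 5000 UMIs, a depth chosen after the data were seen. Macrophage-like cells of wild-type LP had Csf2rb in 44.9% (39% to 50.9%) of cells with a Csf2ra UMI and 32.4% (28.6% to 36.4%) of cells without. Inside the Lyve1 cluster of that library the shares were 36.1% and 30.5%, with overlapping intervals. In wild-type SILT the Mmp13 cluster had 41.1% and 51.8%, and in Csf2-/- SILT 60.7% and 45.9%, opposite in sign and each with overlapping intervals. In monocyte-like and cDC2-like cells the intervals overlapped in all 4 libraries. At 1000 UMIs per cell, cDC2-like cells of wild-type LP had Csf2rb in 32.8% (21% to 46.3%) of cells with Csf2ra and 13.7% (9.86% to 18.3%) of the others, without overlap. At 5000 UMIs 55% to 65.9% of macrophage-like, 72.9% to 81.1% of monocyte-like and 66.4% to 85.2% of cDC2-like cells held a UMI of either chain, against 4.94% to 5.44% of blood endothelial-like cells.

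The partner chains and signalling genes followed their own patterns. Il3ra, the IL-3 receptor alpha chain, was low and even, at 14.81 to 21.49 CPM in macrophage-like, 18.14 to 21.19 in monocyte-like and 13.62 to 19.83 in blood endothelial-like cells. Il5ra, the IL-5 receptor alpha chain, was seen in B cell-like (14.68 to 30.88) and plasma cell-like cells (7.896 to 15.02) and gave 0 UMIs in macrophage-like cells of every library. The ligands Il3 and Il5 gave 0 and 1 UMI in all libraries together. Csf1r, the receptor for the macrophage growth factor CSF1, was highest in macrophage-like cells, at 1180 to 1909 CPM there, 559.1 to 869.1 in monocyte-like and 137 to 211.6 in cDC2-like cells. Csf3r, the granulocyte growth factor receptor, stood at 1151 CPM in neutrophil-like and 38.86 to 71.19 in monocyte-like cells. Flt3, a dendritic cell growth factor receptor, stood at 131.3 to 175 CPM in cDC1-like and 67.04 to 163.5 in cDC2-like cells.

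Jak2, the kinase bound to the beta chain, was, like Csf2rb, highest in migratory dendritic-like cells (226.7 to 277.4 CPM). It was 95.74 to 165.9 CPM in cDC2-like, 90.38 to 107 in cDC1-like, 26.72 to 45.57 in monocyte-like and 24.68 to 37.53 in macrophage-like cells. Stat5a was also higher in cDC2-like cells (24.55 to 41.23) than in macrophage-like cells (9.965 to 19.75), and Stat5b reached 96.47 CPM in neutrophil-like cells. Of the STAT5-driven brakes, Cish was at 0.3526 to 2.524 CPM in macrophage-like cells and 16.13 to 23.35 in blood endothelial-like cells. Socs2 had 123.7 to 163.5 CPM in migratory dendritic-like and 198.6 to 246.6 in blood endothelial-like cells, and at most 3.966 in macrophage-like cells. Socs3 was widespread, at 138.8 to 180.5 CPM in macrophage-like, 197.6 to 339.3 in monocyte-like and 218.6 to 424.5 in cDC2-like cells.

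Loss of Csf2 was compared next, within clusters, because the clusters of a class differ in level and in their share of cells. The Mmp13 cluster made up 11.1% of macrophage-like cells in wild-type LP, 31.6% in Csf2-/- LP, 35.4% in wild-type SILT and 49.2% in Csf2-/- SILT. Csf2ra, the ligand-binding chain, was higher without the ligand in every macrophage- and monocyte-like cluster of both tissues, with intervals clear of 1 in 6 of the 8 comparisons. In SILT the ratio of Csf2-/- to wild type was 1.56 (1.28 to 1.9) in the Lyve1 cluster and 1.22 (1.08 to 1.37) in the Mmp13 cluster. It was 1.28 (1.13 to 1.46) in the Ms4a4c and 1.4 (1.17 to 1.67) in the Chil3 cluster. In LP the same clusters gave 1.33 (1.13 to 1.56), 1.15 (0.981 to 1.35), 1.27 (1.14 to 1.41) and 1.11 (0.928 to 1.33).

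These differences were small beside the 1.5-fold used as a yardstick. Of the 3 receptor genes, 1 passed it in the Lyve1 cluster in SILT, Csf2ra, where 11.7% of 7897 genes with a mean of at least 10 CPM did so in either direction. With TMM factors, which centre the bulk of genes, this log2 ratio was 0.533, short of 1.5-fold (log2 0.585). The median log2 ratio over all genes in the 8 comparisons lay between -0.08 and 0.10, so the Csf2ra values (log2 0.15 to 0.64) were above it. Beyond these clusters, Csf2ra in cDC2-like cells gave a ratio of 1.02 (0.917 to 1.13) in LP and 1.37 (1.17 to 1.59) in SILT. cDC1-like cells in SILT gave 1.72 (1.26 to 2.33), where 28.0% of genes passed 1.5-fold, and migratory dendritic-like cells 2.22 (1.64 to 2.99), where 35.9% did. The latter compares 34 Csf2-/- cells, at a median of 2504 UMIs, with 150 wild-type cells at 3422.

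Csf2rb moved differently from Csf2ra and differently in the tissues. In the Lyve1 cluster its ratio included 1 in both tissues, at 0.995 (0.824 to 1.19) in LP and 1.09 (0.883 to 1.34) in SILT. In the Mmp13 cluster it was 0.967 (0.827 to 1.13) in LP and 1.3 (1.15 to 1.47) in SILT. In the Ms4a4c monocyte-like cluster it was lower without Csf2 in LP, 0.735 (0.645 to 0.838), and higher in SILT, 1.28 (1.1 to 1.5). The 4 levels behind this were 173.5 and 127.6 CPM in LP and 111.7 and 143.3 in SILT, so the wild-type libraries were the extremes and the Csf2-/- libraries stood close together. In cDC2-like cells it was lower in LP, 0.778 (0.695 to 0.87), and near 1 in SILT, 1.02 (0.861 to 1.22).

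Csf2rb2 had fewer UMIs and wider intervals. Its ratio was 0.632 (0.465 to 0.85) in the Ms4a4c cluster of LP, past 1.5-fold in a comparison where 10.1% of genes passed it. It fell short of 1.5-fold at a log2 ratio of -0.534 with cells thinned to 1000 UMIs and of -0.499 as a mean over cells. In that cluster of LP the chains therefore differed in opposite directions, Csf2ra at 1.27 and both beta chains below 1. The Chil3 cluster of LP gave 0.627, where 22.7% passed, but its interval of 0.275 to 1.37 included 1 and thinning put it at a log2 ratio of -0.553. In cDC2-like cells of LP it was 0.723 (0.545 to 0.95). In both macrophage-like clusters its ratio included 1 in both tissues, for example 1.23 (0.897 to 1.65) in the Lyve1 cluster of LP. In migratory dendritic-like cells of SILT it was 1.9 (1.2 to 2.95). In blood endothelial-like cells Csf2rb was 2.06-fold (1.31 to 3.2) higher without Csf2 in LP and 1.58-fold (1.07 to 2.28) in SILT, where 9.23% and 12.6% of genes passed 1.5-fold. Inside their Btnl9 cluster alone the ratios were 1.62 (0.755 to 3.25) and 1.38 (0.792 to 2.31), both including 1.

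As a whole class, macrophage-like cells gave ratios that mix the clusters. Csf2ra was 1.58 (1.41 to 1.76) in LP, where 12.5% of genes passed 1.5-fold, and 1.43 (1.29 to 1.59) in SILT. The LP log2 ratio was 0.308 with the clusters at equal weight, short of 1.5-fold. Csf2rb was 1.33 in LP as a class, although it was 0.995 and 0.967 inside the clusters. Equal weight also turned its LP log2 ratio from above 0 to -0.03.

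**Figure D4:**
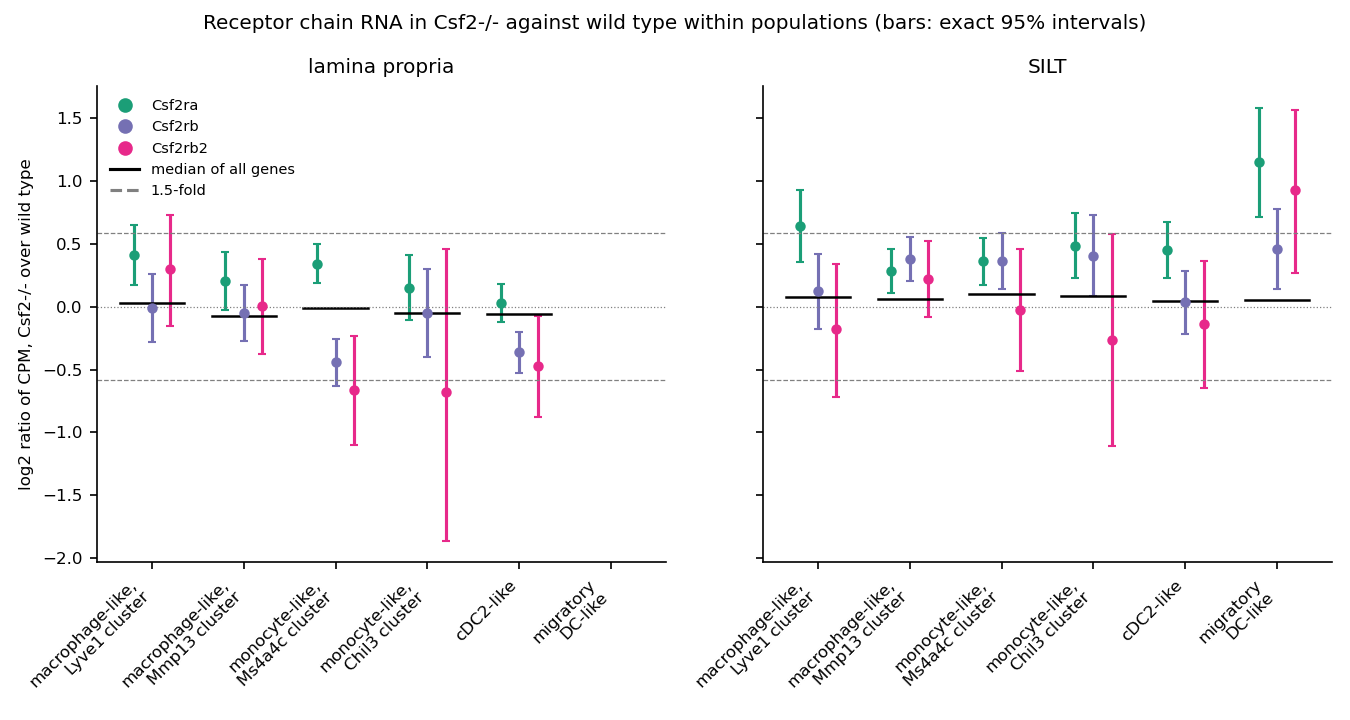
Log2 ratio of Csf2-/- to wild-type CPM for Csf2ra, Csf2rb and Csf2rb2 within 6 populations in LP (left) and SILT (right), with exact 95% intervals. Black lines are the median of all genes and dashed lines 1.5-fold. Csf2ra lies above 0 in the 4 macrophage- and monocyte-like clusters of both tissues, while Csf2rb in the Ms4a4c cluster is at -0.44 in LP and 0.36 in SILT. Migratory dendritic-like cells were too few in LP.

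cDC2-like cells had their receptor RNA at 0.778 to 1.37 times the wild-type level (Csf2ra and Csf2rb) without the ligand, while several genes known to act below the receptor were far lower. The cluster held 336, 269, 295 and 201 cells in the order used above. Ccl17, a chemokine that draws T cells and is known to be induced by CSF2, had 191 CPM in wild-type LP and 5.591 in Csf2-/- LP, and 122 in wild-type SILT and 1.6 in Csf2-/- SILT. The wild type was higher by 34.2-fold (20.9 to 60) in LP and 76.3-fold (25.9 to 372) in SILT. A Ccl17 UMI was found in 24.4% and 19.3% of wild-type cells and in 1.86% and 1.49% of Csf2-/- cells. Of the 16 UMIs in Csf2-/- LP, 12 were in 1 cell.

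Ear2, an eosinophil-type ribonuclease, showed the same direction. It had 116.1 and 9.434 CPM in wild-type and Csf2-/- LP, and 133 and 5.866 in SILT. That is 12.3-fold (8.37 to 18.8) and 22.7-fold (12.5 to 45.8) higher in the wild type. It was found in 46.7% and 32.5% of wild-type cells and in 7.43% and 5.47% of Csf2-/- cells. Ear2 belongs to a family of near-identical genes, so reads of its relatives may be counted with it. In the Chil3 monocyte-like cluster, where Ear2 is also expressed, it was not lower without Csf2, at 115.8 and 149.2 CPM in LP and 137.9 and 216.7 in SILT (1.57-fold higher, 1.29 to 1.92).

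Cish, a STAT5 target that damps cytokine signalling, had 114 UMIs in wild-type LP and 3 in Csf2-/- LP (23.27 and 1.048 CPM). In SILT it had 29 and 1 (10.62 and 0.5333 CPM). The ratio of Csf2-/- to wild type was 0.0451 (0.00916 to 0.135) in LP and 0.0502 (0.00123 to 0.303) in SILT. Dok2, an adaptor that restrains kinase signalling, was at 0.303 (0.214 to 0.418) and 0.479 (0.295 to 0.755). Ccl22, another T cell-attracting chemokine, was at 0.14 (0.0968 to 0.197) and 0.523 (0.262 to 0.984), although 188 of its 440 wild-type LP UMIs were in 1 cell. Its log2 ratio was -1.79 in LP at Leiden resolution 2, and -0.551 in SILT, short of 1.5-fold, as a mean over cells. The adaptor Gab2 was at 0.547 (0.397 to 0.746) and 0.588 (0.336 to 0.993), and its SILT log2 ratio of -0.556 at Leiden resolution 0.5 also fell short of 1.5-fold.

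Other genes of the lists in cDC2-like cells differed by gene and tissue. Of 22 kinases, adaptors and STATs, 0 were past 1.5-fold higher and 5 lower in LP, and 1 higher and 1 lower in SILT, beside 3.84% and 8.9% of all genes in LP and 10.5% and 6.27% in SILT. Flt3, the receptor for another dendritic cell growth factor, was higher, at 163.5 against 104.5 CPM in LP (1.56-fold, 1.38 to 1.78) and 137.6 against 67.04 in SILT (2.05-fold, 1.69 to 2.49). Stat5a gave 1.12 (0.882 to 1.42) in LP and 1.5 (1.06 to 2.13) in SILT, and Socs3 1.07 (0.991 to 1.14) and 0.867 (0.766 to 0.982). Jak2 was lower in LP, at 0.577 (0.501 to 0.662), and gave 0.923 (0.765 to 1.11) in SILT. The cytokine Il1b was higher in LP, at 2.49 (2.34 to 2.66), and gave 1.08 (0.994 to 1.16) in SILT.

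These cDC2 genes were picked out of the pathway lists after their values were seen. Ccl17 and Flt3 are also cDC2 markers and Ear2 is a monocyte marker in the lists used to name clusters, and Ccl17 is among the leading genes of the cluster. The summed level of the 14 cDC2 markers was 4595, 3903, 3928 and 3296 CPM in the order used above. The 17 macrophage markers summed to 1847, 1341, 1795 and 1357 CPM, lower in both Csf2-/- libraries, and the 17 monocyte markers to 3425, 3484, 2987 and 3429. The part of these admixtures in the cDC2 values was not tested.

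**Figure D5:**
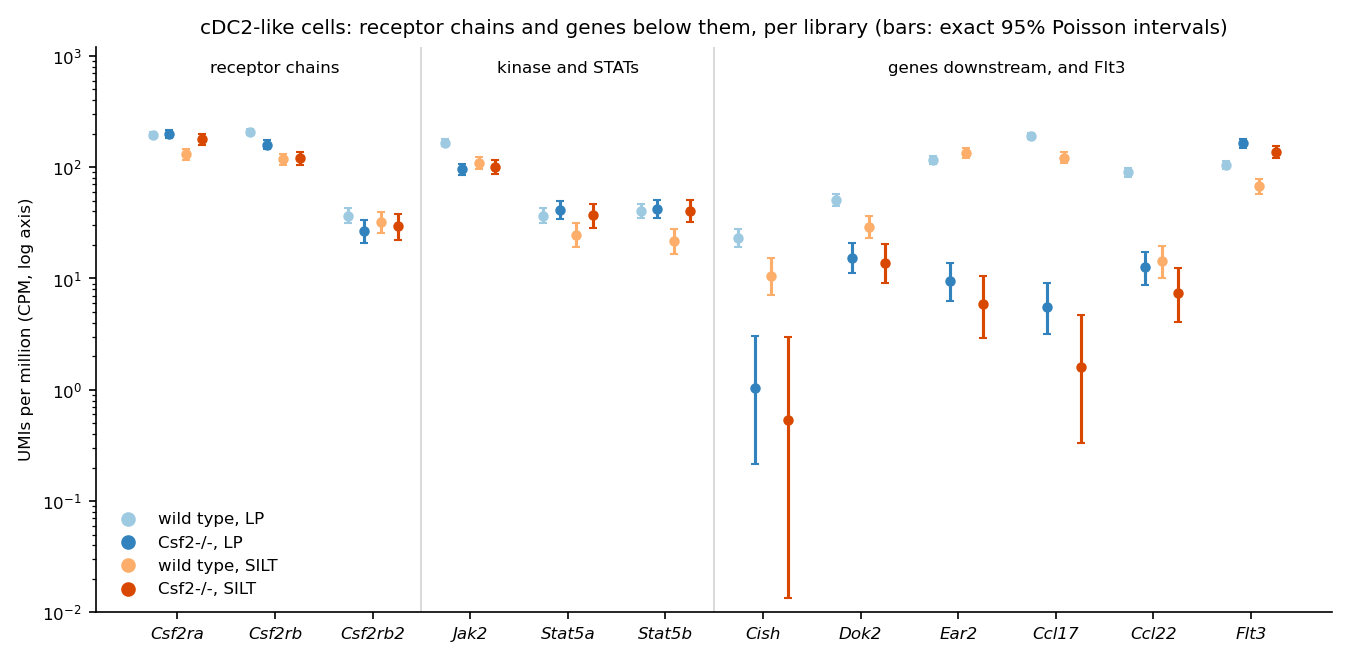
Levels in cDC2-like cells (CPM, log axis) of the receptor chains, Jak2 and the STAT5 genes, and genes downstream together with Flt3, 1 point per library with exact 95% Poisson intervals. The receptor chains sit within 117.6 to 205.3 CPM (Csf2ra, Csf2rb) or 26.56 to 36.74 (Csf2rb2), while Ccl17 stands at 191 and 122 CPM in the wild type and at 5.591 and 1.6 in Csf2-/-.

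The pathway lists as a whole (65 genes: ligands, receptors, kinases and adaptors, brakes and genes known to rise with CSF2) were counted as a whole and within clusters. In macrophage-like cells of SILT, 47 had a mean of at least 10 CPM, of which 7 were past 1.5-fold higher and 0 lower, beside 5.45% and 2.42% of all genes. Their median log2 ratio was 0.20 beside 0.05 over all genes. In LP, of 47, 7 were higher and 4 lower (4.81% and 7.67% of all genes), with a median of -0.06 beside -0.05. Inside the clusters the LP counts parted, with 4 of 45 higher and 1 lower in the Lyve1 cluster (5.25% and 4.84% of all genes) and 2 of 49 higher and 8 lower in the Mmp13 cluster (5.87% and 13.5%). In SILT they were 7 and 1 of 44 (8.27% and 3.43%) and 6 and 1 of 47 (8.92% and 3.27%). In monocyte-like cells, 10 of 50 were higher and 0 lower in SILT (10.5% and 3.09%), with a median of 0.28 beside 0.09. In LP, of 53, 2 were higher and 3 lower (3.21% and 5.7%), with both medians at -0.02. By cluster, 5 of 51 were higher and 2 lower in the Ms4a4c cluster of LP (4.19% and 5.88%), and 0 of 52 higher and 7 lower in the Chil3 cluster (9.39% and 13.3%). In SILT they were 11 and 1 of 52 (11.4% and 4.07%) and 12 and 2 of 50 (15.6% and 6.7%).

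Genes known to rise with CSF2 were counted on their own. In cDC2-like cells, 0 of 18 were higher and 5 lower in SILT, where 10.5% of all genes were higher and 6.27% lower. In LP 1 of 17 was higher and 5 lower, beside 3.84% and 8.9%. Ccl17, Ccl22 and Ear2 were among the 5 in both tissues. In macrophage-like cells the same list had 4 of 15 higher and 0 lower in SILT and 5 of 14 higher and 1 lower in LP, beside the shares of all genes given above. Inside the clusters of LP it had 3 of 13 higher and 0 lower in the Lyve1 cluster but 2 of 17 higher and 4 lower in the Mmp13 cluster, and in SILT 3 of 12 and 3 of 15 higher with 1 lower in each. Id2, a transcriptional regulator on this list, was past 1.5-fold higher in both tissues in macrophage-like cells, from 45.43 to 77.57 CPM in LP (1.71-fold, 1.45 to 2) and from 45.45 to 81.34 in SILT (1.79-fold, 1.55 to 2.06). In monocyte-like cells it was 1.73-fold (1.48 to 2.02) and 1.61-fold (1.37 to 1.9) higher. The LP value there was short of 1.5-fold, at a log2 ratio of 0.255, 0.295 and 0.316, with Leiden resolution 2, a stricter cell filter and doublets kept. In the Lyve1 cluster the inflammatory cytokine Il1b was 2.26-fold (1.78 to 2.87) higher in LP and 2.27-fold (1.87 to 2.76) in SILT, a gene also chosen after its values were seen. Leaving out the highest cell of each library put its LP log2 ratio at 0.633.

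Tissue was compared last, SILT against LP within a genotype. In wild-type cells the total-UMI scaling put the median of all genes at -0.17 (log2) in the Lyve1 cluster and between -0.17 and -0.23 in the Mmp13, Ms4a4c and Chil3 clusters and cDC2-like cells. Against that, Csf2ra was at -0.54 in the Lyve1, -0.48 in the Mmp13, -0.22 in the Ms4a4c and -0.64 in the Chil3 cluster, and -0.59 in cDC2-like cells. Csf2rb was at -0.33, -0.78, -0.64, -0.47 and -0.80 in the same populations. Both genes were thus lower in SILT by more than the shift of all genes, except Csf2ra in the Ms4a4c cluster. For Csf2rb the interval included that shift in the Lyve1 (-0.519 to -0.151) and Chil3 (-0.822 to -0.123) clusters, so the excess there is not resolved. Csf2rb passed 1.5-fold in the Mmp13 cluster, where 26.4% of genes did, in the Ms4a4c cluster, where 30.7% did, and in cDC2-like cells, where 33.1% did. Csf2ra passed it in the Chil3 cluster, where 37.5% of genes did, and in cDC2-like cells, and Csf2rb2 in the Mmp13 cluster. Each of these calls was lost under at least 1 alternative. With TMM factors Csf2ra was at -0.421 in the Chil3 cluster and -0.414 in cDC2-like cells, Csf2rb at -0.432 in the Ms4a4c cluster and Csf2rb2 at -0.511 in the Mmp13 cluster. Csf2rb was at -0.577 in the Mmp13 cluster after thinning and at -0.39 in cDC2-like cells at Leiden resolution 0.5. In the Lyve1 cluster 0 of the 3 genes did, beside 20% of all genes.

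The same values were taken in Csf2-/- cells. Csf2ra was at -0.31, -0.40, -0.20, -0.30 and -0.17 and Csf2rb at -0.20, -0.36, 0.17, -0.02 and -0.41, with the median of all genes between -0.07 and 0.02. Csf2rb2 was at -0.51, -0.49, 0.24, 0.53 and 0.14, against -0.04, -0.71, -0.40, 0.12 and -0.19 in wild-type cells. Of the Csf2-/- values 0 passed 1.5-fold, beside 10.3%, 12%, 8.49%, 17.7% and 12.2% of all genes. Whether the tissue difference itself depends on the genotype was not tested. For macrophage-like cells as a class the wild-type difference was small, -0.06 for Csf2ra and -0.11 for Csf2rb, and changed sign to 0.13 and 0.08 when scaled with TMM factors. It was -0.851 and -0.845 in macrophages taken as cells with at least 2 C1q UMIs.

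Genes with levels most like each receptor chain were sought over 26 sums of class and library from 11 classes, among 12396 genes, with Pearson's r of log2(CPM + 1). The points share libraries and cell classes, and r is a description. Nearest to Csf2ra were Myo1f (0.982), Tifab (0.981), Cd300a (0.98), Tnf (0.977) and Nlrp3 (0.976). Nearest to Csf2rb were Arl4c (0.959), Gsap (0.952), Amz1 (0.949), Icam1 (0.937) and Gdpd3 (0.937). Nearest to Csf2rb2 were Arl4c (0.95), Dnaaf3 (0.948), Ubash3b (0.918), Abcg3 (0.916) and Cxcl16 (0.915). Csf2rb resembled Csf2rb2 (0.978) more than Csf2ra (0.897). In blood endothelial-like cells Myo1f, nearest to Csf2ra, had 1.106 to 1.718 CPM, while Arl4c, nearest to both beta chains, had 11.64 to 19.64. Icam1 (11.9 to 25.43), Ubash3b (16.86 to 20.25) and Cxcl16 (9.696 to 19.44) were near Arl4c there. Gsap (3.559 to 5.173), Amz1 (2.823 to 3.562), Gdpd3 (2.455 to 5.541), Dnaaf3 (1.964 to 3.166) and Abcg3 (2.375 to 8.202) were lower. The endothelial sums were among those used to pick these genes, so the values are a description only.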

How the data were processed

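UMI counts per gene and barcode were deposited as matrices by the authors. The submitters' processing notes name Cell Ranger 2.1.1 and mm10, the file headers name version 6.0.0 and the labels' protocol the 10x single cell 3' v2 kit; the reason for the difference is not given in the sources used here. Barcodes under 200 detected genes, or with over 10% of UMIs mitochondrial, were dropped, and Scrublet calls (52, 7, 136 and 10 cells in wild-type LP, Csf2-/- LP, wild-type SILT and Csf2-/- SILT) were removed. The cells were clustered with scanpy 1.11.5 (2000 variable genes without the receptor genes, 30 components, 15 neighbours, Leiden resolution 1) into 30 clusters, 12 of them left unnamed. A marker counted for a cluster where it was at least 2-fold over the other clusters and in at least 10% of cells. A cluster took the type with the largest share of its markers counted, if these were at least 3. Clusters that were shallow, mixed with another type or led by another type's genes were left unnamed. Counts were summed per population and library and divided by all its UMIs; no count model was run, since each group is 1 library. Levels and ratios are given for populations of at least 30 cells, apart from the Madcam1 and Retnla clusters, where smaller cell numbers are printed. In all comparisons a gene counted as measured at a mean of at least 10 CPM. The code was tested on simulated counts.

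The receptor genes, pathway lists, markers and rules were chosen with earlier results of these data known. The rule for named genes took the receptor chains, Csf2, pathway genes past 1.5-fold in both tissues in macrophage-like or monocyte-like cells, 11 signalling genes by level, and the 5 genes most like each chain. TMM factors came from edgeR 4.0.16 (R 4.3.3). Sequences are from RefSeq (GRCm38.p6; 2 of 3 promoters matched) and GENCODE M21. Alternatives were other filters, resolutions, scalings, thinning, gates and folds.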

Additional observations from a re-analysis of the deposited data

Results flagged for a closer look

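Csf2rb in monocyte-like cells drew attention because its log2 ratio of Csf2-/- to wild type was positive in SILT (0.377) and negative in LP (-0.347). The same held in the Ms4a4c cluster alone, at 0.36 in SILT and -0.443 in LP. The Chil3 cluster gave a ratio of 1.32 (1.06 to 1.65) in SILT and 0.967 in LP. The difference between the tissues was not tested, since each value compares 1 library with 1 library.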

How the results depend on the processing

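No paired analysis was possible because each group is 1 library, and for the same reason none could be left out. Of 357 genotype values of the receptor genes under the alternatives, 345 stayed inside the interval of the value reported, 11 moved and 1 reversed. Of 306 tissue values 292 stayed and 14 moved, and of 629 levels 508 stayed and 121 moved. These counts include 21 genotype values, 18 tissue values and 69 levels from allowing the receptor genes in the clustering. With 0 of them among the variable genes, the clusters were unchanged and these values could not move. Taking macrophages as cells with at least 2 C1q UMIs gave log2 genotype ratios of 1.04 (SILT) and 0.414 (LP) for Csf2ra, 0.872 and 0.156 for Csf2rb and 0.815 and 0.216 for Csf2rb2, and wild-type tissue ratios of -0.851, -0.845 and -0.62. With macrophage-like clusters at equal weight the genotype ratio of Csf2rb was 0.252 in SILT and -0.0282 in LP, and in LP that of Csf2ra 0.308 and of Csf2rb2 0.151. Leiden resolution 2 gave 0.244 for Csf2rb (macrophage-like, LP). A stricter cell filter gave 0.31 for Csf2rb2 (macrophage-like, LP) and -0.259 for Csf2rb between wild-type tissues. TMM factors gave wild-type tissue ratios of 0.132 (macrophage-like) and -0.0882 (monocyte-like) for Csf2ra and 0.08 and -0.39 for Csf2rb, and resolution 0.5 gave -0.39 for Csf2rb in cDC2-like cells. The cause of these shifts was not tested.

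At the smaller fold tried, pathway genes counted as higher and lower were 19 and 3 (macrophage-like, SILT), 12 and 13 (LP), 23 and 3 (monocyte-like, SILT) and 11 and 11 (LP), with 15 higher in cDC2-like cells of SILT and 5 in LP. At 2-fold the counts higher and lower were 4 and 0 in macrophage-like cells of LP, 0 and 0 in monocyte-like cells of LP, 2 and 4 in cDC2-like cells of SILT and 1 and 5 in LP, and 0 were higher in SILT in macrophage-like and monocyte-like cells. The shares of all genes past these other folds are not given here, so these counts cannot be set against them. Of 167 values of the other pathway genes named, chosen after seeing the data, 156 stayed inside the interval, 11 moved and 0 reversed. In cDC2-like cells the log2 ratio of Ccl17 ran from -6.95 to -4.45 in LP and from -6.43 to -5.72 in SILT, and that of Ear2 from -3.72 to -3.39 and from -4.58 to -4.12. Counting depth limits Csf2rb2, the migratory dendritic-like cells and the Madcam1 cluster most.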
